A study of Mus musculus with 78 samples.

Results

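The 10 genes described here encode the core machinery that divides and joins mitochondria, and they were chosen by name out of 55401 genes in each of 3 count tables. They are Dnm1l, the GTPase that constricts the organelle, and Mff, Fis1, Mief1 and Mief2, proteins of the outer membrane on the fission side. On the fusion side they are Mfn1 and Mfn2 for the outer membrane and Opa1 for the inner membrane, with Oma1 and Yme1l1, the proteases that cut OPA1. All 10 had enough counts to be tested in every table. A ZFP143 peak lay at a promoter of 3 of them, Dnm1l, Fis1 and Mfn2, and of 12.8% to 14.9% of all genes tested per table.

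The cells were E14Tg2A mouse embryonic stem cells of a 129/Ola background in which Zfp143 carried a homozygous FKBP12 F36V degron tag, followed by HA, P2A and GFP. ZFP143, a zinc finger transcription factor that binds promoters, was removed with 500 nM of the degrader dTAG-V1, and control cells of the same tagged line received DMSO. Transient transcriptome sequencing (TT-seq), which reads RNA labelled with 4-thiouridine for 10 min, covered DMSO and dTAG kept on for 2 h, 6 h or 24 h, and RNA-seq covered DMSO and dTAG for 24 h, 48 h or 72 h. A further RNA-seq set held cells kept for 24 h in DMSO or dTAG in stem cell medium, and the same cells after another 24 h with retinoic acid (RA) in differentiation medium. DMSO or dTAG was kept on during RA, so depleted RA cells had been without ZFP143 for 48 h in all. No group had the new medium without RA, so the effect of RA and that of the medium cannot be told apart. In dTAG, RA also goes with 24 h more of depletion. Each of the 12 groups had 2 libraries, every library carried the tag, and no untagged cells treated with dTAG were analysed here.

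Mitochondria divide when cytosolic DRP1, the product of Dnm1l, assembles around them on receptors of the outer membrane. Fusion joins the outer membranes through MFN1 and MFN2 and the inner membranes through OPA1. YME1L1 cuts OPA1 in healthy mitochondria, and OMA1 cuts it under stress and also releases DELE1, which acts through the kinase encoded by Eif2ak1 on the transcription factor ATF4. The balance of these steps is known to be adjusted when stem cells leave pluripotency.

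Total counts ran from 9721568 to 16532077 in TT-seq, 10261851 to 15316700 in the RNA-seq time course and 13890761 to 27089033 in the RA set. The spread between replicates was widest in TT-seq, with a biological coefficient of variation of 17.2% against 3.65% and 5.92%. The degron acts on the protein, and Zfp143 transcripts were higher under dTAG in each of these comparisons with DMSO, by 1.16 to 1.19 on the log2 scale in TT-seq and by 1.09 to 1.38 in RNA-seq. All 8 stem cell markers, Pou5f1, Sox2 and Nanog among them, were detected in every library. In the RNA-seq time course their summed level was 5868 to 5986 CPM in DMSO and 4184 to 4254 at 72 h, while the 5 primitive endoderm markers went from 6.15 to 7.41 CPM in DMSO to 16.6 to 17.1. CPM is the count divided by the total in tested genes and multiplied by 1e+06, scaled between libraries by the trimmed mean of M values (TMM).

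ZFP143 ChIP-seq, done through the HA tag, had 1 library in DMSO and 1 in dTAG, so the heights of the 3189 peaks listed have no replicate error. The median peak had an enrichment of 20.8-fold over input. The Dnm1l peak lay at chr16:16358585-16359332 (mm10, as all positions here), reached 106.6-fold, above 96.9% of all peaks, and its centre was 0.5 bp from the start of the gene, which lies on the reverse strand from 16312230 to 16358959. The Fis1 peak, at chr5:136962010-136962708 with 78.78-fold, lay 9084 bp inside the gene as annotated, but over the starts of 3 of its 6 transcripts, including the principal one. That peak overlapped a CTCF peak, which the other 2 did not. The Mfn2 peak, at chr4:147904475-147905128 with 63.6-fold, covered 5 of 7 transcript starts. All 3 also had a centre within 500 bp of a start and an enrichment above 10-fold.

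The other 7 promoters had no peak within 2000 bp. The nearest peak centre was 18772 bp upstream of the start of Opa1, 28762 bp upstream of Mief2, 64358.5 bp upstream of Mief1 and 88116 bp upstream of Yme1l1. It was 233739.5 bp downstream of the start of Mfn1, 890352 bp downstream for Oma1 and 3429805.5 bp downstream for Mff. The fission GTPase, 1 outer membrane protein of the fission side and 1 fusion GTPase were therefore the bound members, and the inner membrane group of Opa1, Oma1 and Yme1l1 held none.

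The 3 bound promoters shared a stretch of bases close to the summits of their peaks. The study reported the known binding motifs of ZFP143 in nearly all of its peaks. Whether the stretch is such a site was not tested. The stretch was found after the peaks had been chosen. It is the 20 bases with most positions alike in the 300 bases around each summit. Capitals mark the 13 positions of that stretch that were identical in all 3, each line runs 5′ to 3′ on the strand of its gene, and the flanks are 20 bases on either side.
Dnm1l, chr16:16359031-16359090, reverse strand: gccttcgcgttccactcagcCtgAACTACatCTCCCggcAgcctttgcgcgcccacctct
Fis1, chr5:136962313-136962372, forward strand: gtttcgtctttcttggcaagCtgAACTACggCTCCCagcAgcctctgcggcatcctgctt
Mfn2, chr4:147904912-147904971, reverse strand: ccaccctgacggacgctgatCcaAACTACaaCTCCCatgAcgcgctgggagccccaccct

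The centre of the stretch was 12.5 bp from the summit in Dnm1l, 13.5 bp in Fis1 and 32.5 bp in Mfn2. It was 101.5 bp upstream of the gene's start in Dnm1l and 237.5 bp upstream in Mfn2. In Fis1 it was 90.5 bp upstream of the transcript start closest to the peak centre and 265.5 bp downstream of the start of the principal transcript. None of the 3 printed stretches overlapped an annotated exon. The core AACTACNNCTCCC, searched on both strands, was found in 190 of the 3189 summit windows (5.96%), which include the 3 it was taken from. It was also found in 128 of 32851 RefSeq promoter windows (0.39%), which run from 250 bases before to 50 after a gene's start. Of the known motifs searched on both strands, ACTACAA, the extension of the long ZNF143 site, was in 19.3% of summit windows and in that of Mfn2, where it lies within the printed stretch. CCCANNATG, a conserved part of the ZNF143 site, was in 25.7% of summit windows and GCGCATGCG, most of the NRF1 site, in 1.94%, and neither was in the 3 shown here. In the RefSeq promoter windows these 3 motifs stood in 3.24%, 5.01% and 1.75%, and the window of Opa1 held GCGCATGCG on both strands, in overlapping positions. All of these searches took exact letters, so a ZNF143 site that differed at any of them was not counted. The study scanned with motif models instead.

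**Figure D1:**
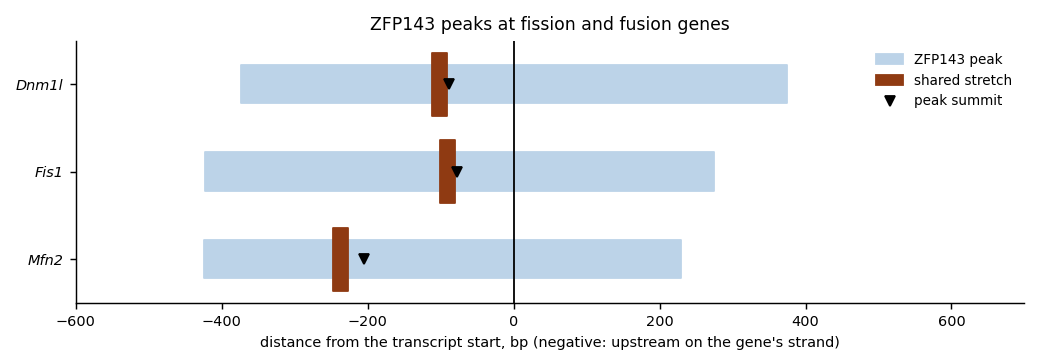
ZFP143 peaks at Dnm1l, Fis1 and Mfn2 (light bars), their summits (triangles) and the shared stretch (dark bars), by distance in bp from a transcript start, with negative values upstream. The centre of the stretch lies within 32.5 bp of each summit, and for Fis1 the distances are from the transcript start closest to the peak centre.

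Before depletion the members spread widely in mRNA level. Per kilobase of exon, Dnm1l was the highest of the 10 in DMSO cells of the RNA-seq time course, at 65.9 ± 0.988 CPM per kilobase (SD, n = 2), followed by Fis1 at 37.4 ± 1.03 and Yme1l1 at 34.8 ± 1.25. Mfn1 and Opa1 followed at 17.9 ± 2.17 and 15.7 ± 0.267. Mief1, Mief2, Mff, Oma1 and Mfn2 made up the lower end, from 9.72 down to 5.50 CPM per kilobase. Mief1 and Mief2 were the only neighbours in this order whose libraries overlapped. The DMSO libraries of the RA set gave the same order of the first 7 genes, with Mfn2 then above Mff and Oma1. In TT-seq, per kilobase of gene span, Fis1 led at 6.39 ± 0.0528, before Mief1 at 4.23 ± 0.300 and Dnm1l at 3.10 ± 0.385, and the libraries of neighbours overlapped from Dnm1l through Yme1l1, Mief2, Mfn1 and Mff to Opa1. Per gene, without the length, Dnm1l had the most CPM of the 10 in TT-seq as well, at 144.9.

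TT-seq asked which genes were transcribed less or more soon after ZFP143 was gone. Dnm1l was the only member called at any time, where a call needed a log2 change of more than 0.5 in size and an adjusted p below 0.05. Its nascent RNA stood at 132 and 158 CPM in the DMSO libraries, at 96.3 and 98.1 after 2 h, at 109 and 108 after 6 h and at 93.5 and 96.2 after 24 h, so every depleted library was below both controls. The log2 change was -0.58 ± 0.12 (SE) after 2 h (edgeR, adjusted p = 0.0462), -0.42 ± 0.12 after 6 h (0.123) and -0.61 ± 0.12 after 24 h (0.0233). Between 2 and 24 h it changed by -0.04, with a 95% interval from -0.31 to 0.24. The study itself showed Dnm1l as an example chosen on these samples, so its decrease is not independent evidence. In bulk libraries, less RNA per cell and fewer cells that express a gene cannot be told apart.

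The calls on Dnm1l in TT-seq rest on few libraries. Without DMSO replicate 2 the change was -0.43 after 2 h (edgeR, adjusted p = 0.204) and -0.46 after 24 h (0.0771), and leaving out either treated library also ended each call, with changes from -0.56 to -0.62. With the size factors of DESeq2 the 2 h value was -0.57 (adjusted p = 0.0540). Gm49521, an antisense gene over the first part of Dnm1l, is counted from the other strand in the authors' split. It had 5 and 4 counts in the DMSO libraries and from 12 to 31 in the 6 depleted ones, so it passed the filter on low counts through the depleted groups alone. It was not called at 2, 6 or 24 h, and for that reason its p-values are not given.

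Among the members with a peak, Fis1 and Mfn2 did not follow Dnm1l at 2 h. The 2 DMSO libraries gave Fis1 83.3 and 82.3 CPM, those of 2 h 76.2 and 87.9, those of 6 h 77.5 and 77.6 and those of 24 h 65.1 and 66.8. The last pair lay below both controls, at a log2 change of -0.33 ± 0.12 that did not pass (edgeR, adjusted p = 0.153). Mfn2 had 36.5 and 37.0 CPM in DMSO and between 35.0 and 43.6 in the 6 depleted libraries, with changes of 0.21, 0.05 and 0.08 at the 3 times. At 2 h its 95% interval ran from -0.09 to 0.51, and that of Fis1 from -0.28 to 0.26. Of all 2288 tested genes with a promoter peak, 389 were called lower at 2 h, and 22.2% at 24 h, against 0.295% and 1.43% of genes without one.

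The 7 members without a peak were not called in TT-seq, and they spread to both sides of 0. Changes at 24 h ran from -0.44 for Mief2 to 0.41 for Oma1 (adjusted p = 0.188, edgeR). Mief2 was the least counted member at 6.4 to 13.1 CPM in all 8 libraries, and its change was 0.01 without DMSO replicate 1. For Oma1, which had 27.9 and 29.6 CPM in DMSO, all 6 depleted libraries were higher, from 31.5 to 42.9. Mfn1 stood at 79.3 and 98.1 CPM in DMSO and at 71.7 and 72.2 after 24 h, a change of -0.30 ± 0.13 (edgeR, adjusted p = 0.219). Opa1, Yme1l1, Mff and Mief1 had changes between -0.16 and 0.23 at all 3 times. In these data 1 of the 10 members was called after 2 h, 0 after 6 h and 1 after 24 h. The shares of all genes called were 2.60%, 3.23% and 6.11%. Between 24 and 2 h, 0 members and 0.0895% of all genes were called. With a replicate block the members called were the same, and 749, 1315, 2223 and 962 of 17870 genes were called in the same order. The median member changed by 0.00, 0.07 and -0.02 and the median of all genes by 0.01 each time. DESeq2 also called 0 after 6 h and between 24 and 2 h, where an unadjusted p under 0.05 in edgeR was reached by 1 member, Dnm1l, and by 2, Fis1 and Mfn1.

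RNA-seq asked what became of the mRNAs over 3 days. Dnm1l was the member that fell most, and it stayed low. From 339 and 347 CPM in DMSO it went to 157 and 148 at 24 h, then stood at 138 and 148 on day 2 and at 163 and 169.7 on day 3, so no depleted library reached a control. On the log2 scale this was -1.17 ± 0.05 (adjusted p = 5.62e-12), -1.26 ± 0.05 (9.88e-14) and -1.04 ± 0.05 (1.52e-10) in edgeR's test against a 1.5-fold change. TT-seq and RNA-seq were scaled separately, and the difference between their changes was not tested. At 72 h Dnm1l was 0.13 ± 0.05 above its 24 h level, which was not called.

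Mfn2, the outer membrane fusion GTPase that also tethers mitochondria to the endoplasmic reticulum, went the other way. Starting at 28.0 and 29.1 CPM in DMSO, its libraries gave 36.5 and 36.9 at 24 h, then 43.5 and 43.8 at 48 h, then 52.6 and 48.4 at 72 h, so each time lay above the one before. The log2 changes from DMSO were 0.36 ± 0.08, 0.61 ± 0.08 and 0.81 ± 0.08, and the one at 72 h was called (adjusted p = 0.00276 against a 1.5-fold change, edgeR). That call was lost without DMSO replicate 1 (0.78, adjusted p = 0.0193), without 72 h replicate 1 (0.75, adjusted p = 0.0369), with no filter on low counts (0.78, adjusted p = 0.0225) and with DESeq2 (0.80, adjusted p = 0.194), while the size of the change moved little.

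Mfn1, its paralogue, declined over the same days. Controls held 100.1 and 119 CPM, the 24 h libraries 102 and 97.8, the 48 h libraries 83.8 and 81.6 and the 72 h libraries 73.5 and 77.1. Its change of -0.54 ± 0.06 at 72 h differed from no change (edgeR, adjusted p = 1.49e-08) and did not pass the test against a 1.5-fold change (0.951). The mRNAs of the 2 mitofusins thus lay on opposite sides of their controls after 48 and 72 h.

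The other members moved by less. Yme1l1 stood at 271 and 286 CPM in DMSO, at 254 and 241 after 24 h and at 329 and 335 after 72 h, so its 24 h libraries lay below and its 72 h libraries above the controls. Fis1 had 62.9 and 65.4 CPM in DMSO and 80.7 and 79.3 after 72 h, a change of 0.32 ± 0.06. Mff, Mief1 and Oma1 changed by 0.24, 0.28 and 0.34 at 72 h and Opa1 by 0.11. Mief2 lay at 25.0 and 26.8 CPM in DMSO and 24.6 and 21.4 after 72 h, the sole member with no difference from no change at any of the 3 times (edgeR, adjusted p from 0.0867 to 0.606), and its sign at 24 and 72 h turned under scaling by library size alone.

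Past 1.5-fold, 1 of the 10 members was called after 24 h, 1 after 48 h and 2 after 72 h, beside 5.73%, 18.2% and 25.8% of all genes. Between 72 and 24 h it was 0 in edgeR, beside 14.1%, and also 0 in DESeq2 and at an unadjusted p under 0.05 of the 1.5-fold test. Against no change at all, 3, 6 and 9 of the 10 differed at an adjusted p under 0.05 (edgeR), where 46.9%, 67.0% and 72.7% of all genes did. Of the 9 at 72 h, 2 were lower, Dnm1l and Mfn1, and 7 higher, where all genes divided into 5044 lower and 5078 higher. The median member changed by 0.04, 0.13 and 0.25 and the median of all genes by 0.02, 0.01 and 0.02. Scaling by library size alone moved the median of all genes by 0.13, 0.20 and 0.22 in these 3 comparisons. The stem cell markers, given above, went down over the same days. Those of neural progenitors went from between 2.76 and 3.06 summed CPM in DMSO to between 9.48 and 10.9 at 72 h. Those of trophoblast went from between 8.73 and 8.77 to between 16.6 and 16.98. In either list 1 of 4 genes had enough counts to be tested. Olig2 and Neurog2, and Cdx2 and Elf5, had 0 counts at 72 h. The part of these markers in the changes of the members was not tested.

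**Figure D2:**
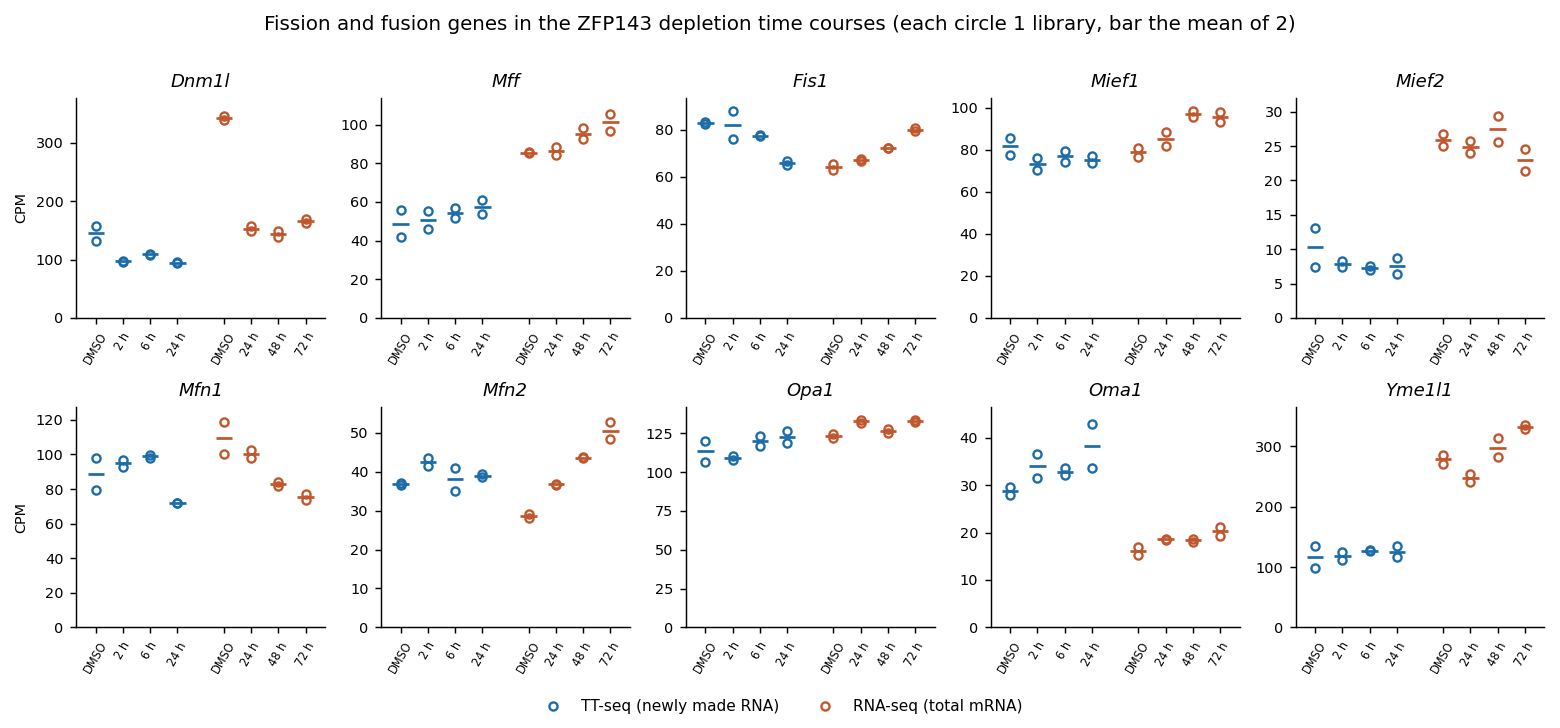
CPM of each member in every library of the TT-seq (blue) and RNA-seq (orange) time courses, on axes that start at 0, with bars at the means of 2 libraries. Dnm1l drops from 339 and 347 CPM to between 138 and 169.7 in RNA-seq, Mfn2 climbs to 52.6 and 48.4, and most other panels are flat in TT-seq.

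**Figure D3:**
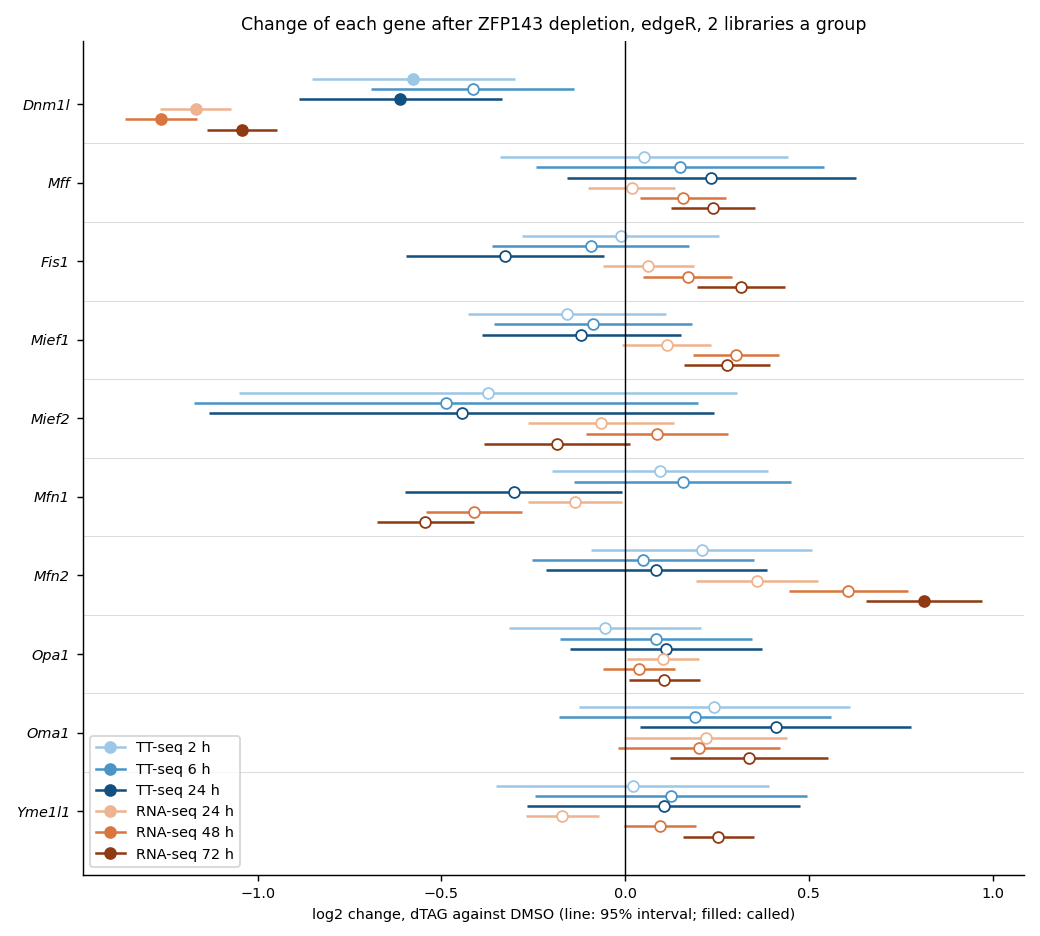
Log2 change from DMSO with 95% interval for each member in 6 comparisons of 2 against 2 libraries, filled where called. The filled points are those of Dnm1l at 5 of the 6 and that of Mfn2 at 72 h in RNA-seq.

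Depletion for 24 h was done in both RNA-seq sets, each with its own controls. Dnm1l gave nearly the same value in it, with 312 and 309 CPM in DMSO and 139.3 and 139.1 in dTAG, a log2 change of -1.16 ± 0.07 (edgeR, adjusted p = 1.42e-07), beside -1.17 in the time course. It was the 1 member of 10 called, beside 6.40% of all genes. Mfn2 changed by -0.08 in the RA set, with an interval from -0.26 to 0.10, beside 0.36 with an interval from 0.19 to 0.52 in the time course. Its DMSO level was also different, 47.3 and 50.3 CPM beside 28.0 and 29.1. Mff changed by 0.43 in the RA set, from 68.2 and 61.2 to 92.3 and 82.1 CPM, beside 0.02 in the time course. Oma1 changed by 0.47 and 0.22. The differences between the sets were not tested, since each was scaled on its own.

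After RA and the change of medium, Mief2 and Mfn1 were called lower and Oma1 higher in cells that had ZFP143. Scaling by library size alone moved the median of all genes by 0.32 in this comparison and turned the sign of Fis1 and Opa1. Mief2 fell most, from 26.1 and 27.6 to 10.8 and 10.6 CPM, a log2 change of -1.33 ± 0.11 (edgeR, adjusted p = 4.32e-07). Mfn1 went from 136 and 137 to 84.0 and 76.8 CPM, a change of -0.76 ± 0.07 (0.00613). Oma1, the stress protease, rose from 12.9 and 15.5 to 25.3 and 28.0 CPM, a change of 0.91 ± 0.11 (0.00250). Mief1 fell short of the threshold with -0.74 ± 0.08 (0.0136), and passed it with the size factors of DESeq2 (-0.76, adjusted p = 0.00877) and without DMSO replicate 2 (-0.80, adjusted p = 0.00574, edgeR). Yme1l1 and Dnm1l changed by -0.53 and -0.50.

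In all, 2 members were called lower and 1 higher, beside 43.9% of all genes called, and the median member changed by -0.44 beside 0.03 for all genes. The call of Mfn1 was lost without DMSO replicate 2, without either DMSO RA library, under library size alone and with DESeq2, with changes from -0.45 to -0.78. That of Oma1 was lost without DMSO replicate 1 (0.77, adjusted p = 0.0534, edgeR) and with DESeq2 (0.90, adjusted p = 0.0721). All 8 stem cell markers were called lower in the same comparison and their sum went from between 6793 and 6961 CPM to between 686 and 1018. The 4 neural progenitor markers, of which 2 were tested, went from between 11.98 and 12.9 to between 76.1 and 84.8. The 5 of primitive endoderm went from between 4.72 and 5.85 to between 36.1 and 37.7. The part of these markers in the values above was not tested.

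In depleted cells 0 of the 10 were called after RA by edgeR, by DESeq2 and at an unadjusted p under 0.05 of the 1.5-fold test, beside 43.5% of all genes called. The median change was -0.28, beside 0.00 for all genes, and scaling by library size alone moved the latter by 0.39 and turned the sign of Dnm1l, Mff, Fis1, Mfn2 and Yme1l1. Mief2 went from 24.7 and 23.7 to 16.0 and 15.7 CPM and Opa1 from 145 and 151 to 100.1 and 104, changes of -0.60 and -0.54. Dnm1l, low already, had 139.3 and 139.1 CPM before and 132 and 141 after.

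The log2 change with RA in dTAG minus that in DMSO was tested as an interaction, and 2 members were called, beside 31.7% of all genes. In dTAG, cells with RA had been depleted for 48 h and cells before RA for 24 h. A different response to RA and the longer depletion cannot be told apart. Mff, a receptor for DRP1, went with RA from 68.2 and 61.2 to 88.3 and 91.5 CPM in DMSO and went from 92.3 and 82.1 to 76.2 and 81.9 in dTAG, an interaction of -0.61 ± 0.11 (edgeR, adjusted p = 0.000213). Without dTAG RA replicate 1 it was -0.50 and short of the size limit. Mief2, another receptor, fell less in dTAG than in DMSO, with an interaction of 0.72 ± 0.15 (0.000603).

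Dnm1l, Opa1 and Oma1 had interactions that differed from 0 but did not exceed 0.5 in size. That of Dnm1l was 0.47 ± 0.10 (edgeR, adjusted p = 0.000542), since it fell with RA in DMSO cells from 312 and 309 to 227 and 212 CPM and not in dTAG. It exceeded 0.5 with the size factors of DESeq2, with DESeq2, under library size alone, without DMSO RA replicate 1 and without dTAG RA replicate 1, at 0.52 to 0.58. Opa1 had -0.41 ± 0.10 (0.00144) and Oma1 -0.45 ± 0.16 (0.0248), and that of Oma1 exceeded 0.5 without DMSO replicate 2 (-0.58) or DMSO RA replicate 1 (-0.51). The other 5 members did not pass, with interactions from 0.13 to 0.25.

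After RA, Dnm1l was at 227 and 212 CPM in DMSO and 132 and 141 in dTAG, a change of -0.69 ± 0.07. This differed from no change (edgeR, adjusted p = 2.87e-08) and did not pass edgeR's test against a 1.5-fold change (0.0898). In that comparison 0 of the 10 were called by edgeR or DESeq2, beside 16.5% of all genes, and 1, Dnm1l, had an unadjusted p under 0.05 of the 1.5-fold test. The stem cell markers summed to between 1346 and 1591 CPM in dTAG, above their level in DMSO, those of fibroblasts to between 26.8 and 27.1 in dTAG and 7.11 and 10.5 in DMSO, and those of neural progenitors to between 36.8 and 37.3 in dTAG, below their level in DMSO. Those of primitive endoderm summed to between 52.4 and 54.4 in dTAG, above DMSO, with 1 of the 5 called lower and 1 higher. Of the 4 neural progenitor markers, 2 were tested and 1 was called lower. The part of these markers in the members' values was not tested. Mief2 was higher by 0.57 ± 0.11 and Opa1 lower by 0.44 ± 0.07 on the log2 scale, each short of the 1.5-fold test (0.763 and 1).

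**Figure D4:**
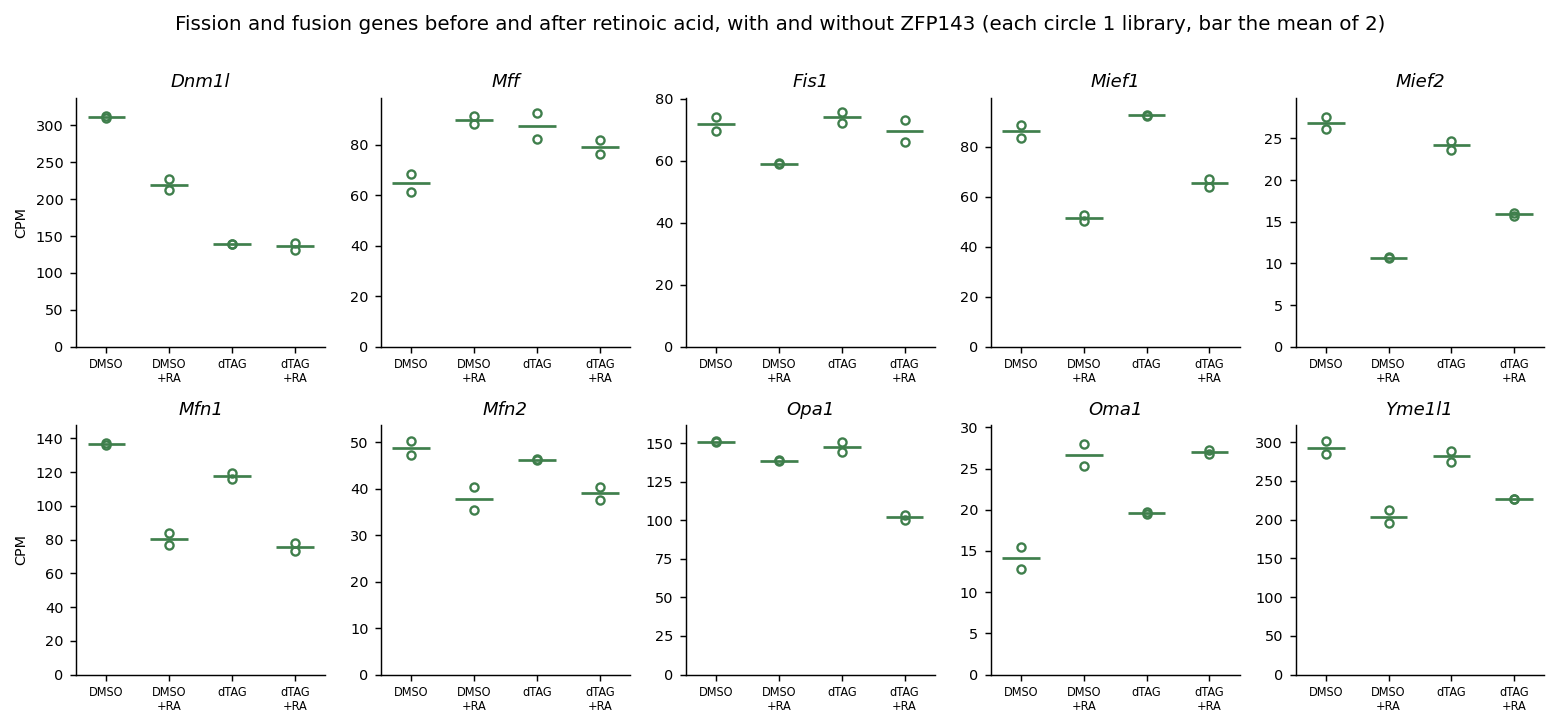
CPM of each member in the 8 libraries of the RA set, with bars at the means of 2 libraries and axes from 0. Dnm1l is at 312 and 309 CPM in DMSO, lower after RA, and between 132 and 141 in all 4 dTAG libraries, while Oma1 is higher after RA in both.

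The wider pathway was read from 5 lists around the members. Of 22 regulators of fission and fusion, 21 were tested. March5, a ubiquitin ligase of the outer membrane that acts on DRP1 and its receptors, had a peak and was called lower at all 3 TT-seq times, by -1.26 ± 0.17, -1.33 ± 0.17 and -1.03 ± 0.17, and in RNA-seq at 24 h (-0.90 ± 0.06) and 72 h (-0.77 ± 0.06). Fkbp8, also with a peak, was called in TT-seq at 6 h with -1.10, and Slc25a46, an outer membrane protein, was called higher at 24 h with 0.88. In RNA-seq at 72 h the formin gene Inf2 was higher by 2.52 and Msto1 lower by 1.10. In TT-seq 1 of 21 was called at 2 h, and 2 each at 6 and 24 h, beside 2.60%, 3.23% and 6.11% of all genes. In RNA-seq it was 1, 2 and 3 over the 3 times, beside 5.73%, 18.2% and 25.8% of all genes, each above the list's own share. Of the bound genes in this list, Mtfp1 and Mul1 were not called in either time course. The median of the list was -0.10 at 2 h and 0.14 at 72 h in RNA-seq, beside 0.01 and 0.02 for all genes. The TT-seq calls of March5 were lost at 2 and 24 h without either treated library and at 6 h without 6 h replicate 1 (edgeR, adjusted p from 0.0564 to 0.0824), that of Fkbp8 without any 1 of its 4 libraries, and that of Slc25a46 without DMSO replicate 1 or 24 h replicate 2. In RNA-seq March5 was not called under library size alone, nor at 72 h with DESeq2 or without either 72 h library.

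Of 11 inner membrane proteases and scaffolds, Letm1, an ion exchanger needed for the shape of the inner membrane, had a peak and changed by -1.65 ± 0.22 at 2 h of TT-seq and -2.34 ± 0.09 at 24 h of RNA-seq. Phb, a prohibitin that holds the scaffold on which these proteases work, also had a peak and was called lower in TT-seq at 6 and 24 h and in RNA-seq at all 3 times, with -0.81 to -1.18. Phb2, its partner, had no peak and was called lower at 24 h of TT-seq (-0.65) and 72 h of RNA-seq (-0.79). Letmd1 was higher at 72 h by 2.33. The median of these 11 was -0.13 at 2 h and -0.59 at 72 h in RNA-seq, beside 0.01 and 0.02 for all genes. At 72 h 3 were called lower and 1 higher, beside 25.8% of all genes called, 1677 lower and 1912 higher. The 2 h call of Letm1 was lost without 2 h replicate 1 (-1.51, adjusted p = 0.0763, edgeR). In TT-seq those of Phb were lost without DMSO replicate 2 or either treated library, and at 24 h also without DMSO replicate 1 and under library size alone (-0.51, adjusted p = 0.0685, edgeR), and that of Phb2 without DMSO replicate 1 or either 24 h library. In RNA-seq the 24 h call of Phb was lost without DMSO replicate 1, without 24 h replicate 1, with DESeq2 and under library size alone, and the last also ended that of Phb2.

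Of 7 genes of the MICOS complex, which folds the inner membrane into cristae, 4 had a peak and 1 was called in the time courses, at 2 and 24 h of TT-seq and at all 3 times of RNA-seq, beside the shares of all genes given above for these times, 2.60% and 6.11%, and 5.73%, 18.2% and 25.8%. It was 2410015M20Rik, known as Micos13, with -1.59 ± 0.32 at 2 h of TT-seq, a call lost without any 1 of its 4 libraries (edgeR, adjusted p from 0.113 to 0.306), and -2.57, -2.61 and -3.24 over the 3 RNA-seq times. The median of the 7 was 0.01 at 2 h of TT-seq and 0.20, 0.02 and -0.07 over the 3 RNA-seq times. Among 6 genes of mitochondrial transport, Trak2, an adaptor for motors, had a peak and changed by -0.88 ± 0.14 at 2 h, which was lost without DMSO replicate 2 (-0.72, adjusted p = 0.0742, edgeR) or either 2 h library. At 6 and 24 h Trak2 was not called (-0.60, adjusted p = 0.0567, and -0.42, adjusted p = 0.117, edgeR), nor at any RNA-seq time, with -0.73, -0.63 and -0.36. In this list 1 of 5 tested genes was called in TT-seq, at 2 h alone, beside 2.60% of all genes, and 1 of 6 in RNA-seq, Armcx3 at 48 and 72 h, beside 18.2% and 25.8%. Armcx3 was higher by 2.16 in RNA-seq at 72 h and was too low to be tested in TT-seq. Its 48 h call was lost with DESeq2 (1.45, adjusted p = 0.121), without DMSO replicate 2 (1.21) and without 48 h replicate 1 (1.24).

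In the list around OMA1 and DELE1 each call between dTAG and DMSO was upward. Atf5, a transcription factor of the stress response, changed by 1.83, 2.44 and 3.35 over the 3 RNA-seq times and Ddit3, which encodes CHOP and had a peak, by 2.32, 3.09 and 2.96. Chac1 was called at 48 h with 0.89, and not by DESeq2. In this list of 6, 2 were called at 24 h, 3 at 48 h and 2 at 72 h, all higher, beside 5.73%, 18.2% and 25.8% of all genes called in either direction, and the median was 0.59, 0.70 and 0.51, beside 0.02, 0.01 and 0.02 for all genes. Before RA, Atf5, Ddit3 and Chac1 were higher in dTAG by 1.29, 2.40 and 1.42, and after RA Atf4, Atf5 and Ddit3 by 0.96, 1.05 and 1.28. With DESeq2 Chac1 before RA (1.38, adjusted p = 0.0308) and Ddit3 after RA (1.32, adjusted p = 0.0191) were not called. The interaction was 2.41 ± 0.14 for Letm1, which was the greatest of the 5 lists, 0.83 for March5 and -1.12 for Ddit3. In the list around OMA1, 2 of 6 were called lower and 2 higher by it, beside 31.7% of all genes called in either direction.

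**Figure D5:**
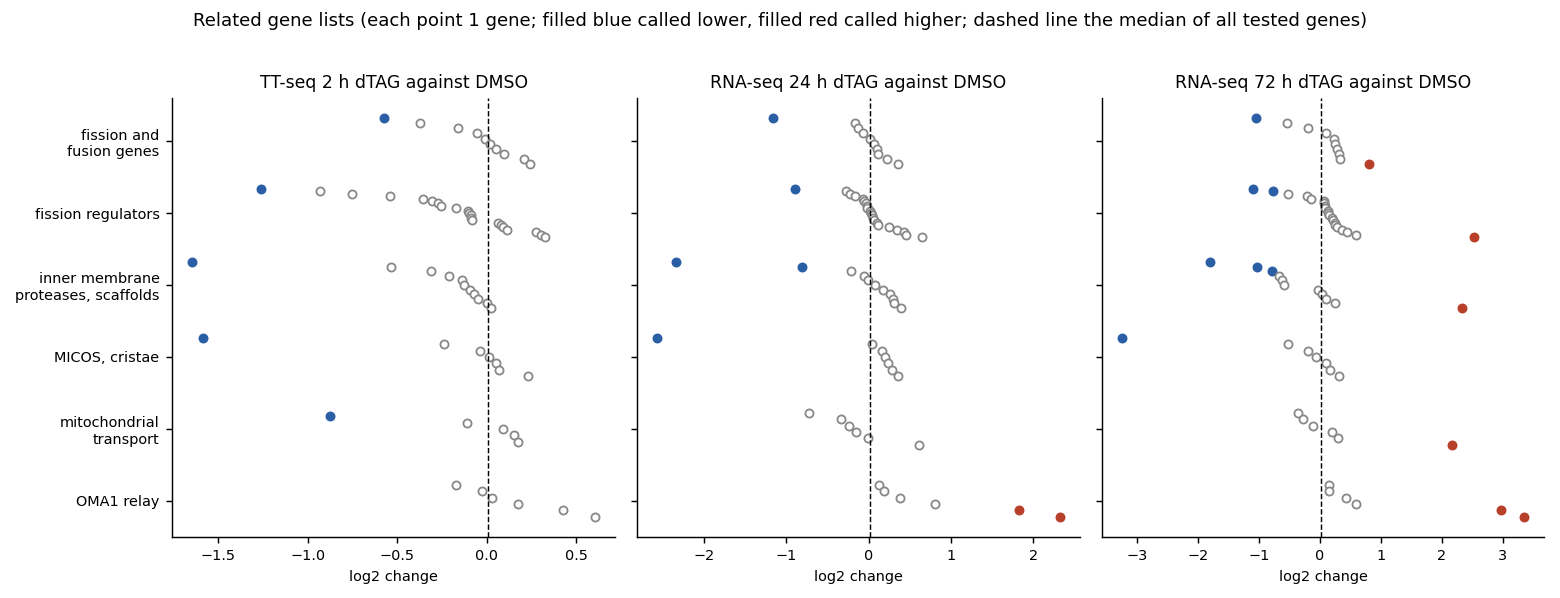
Log2 change of each tested gene of the members and the 5 lists at 2 h of TT-seq and at 24 and 72 h of RNA-seq, with the median of all tested genes dashed. A few genes stand far from their list, such as Letm1 at -1.65, -2.34 and -1.80, and the called genes of the OMA1 relay are all higher.

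Across the 8 TT-seq libraries the protein-coding genes whose log2 CPM followed Dnm1l most closely were Tmem265 (Pearson r = 0.994), Htt (0.986) and Vps41 (0.986), out of 13660, and 43 genes had r above 0.95. The points share libraries and their scaling, so this is a description.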

How the data were processed

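The authors deposited raw read counts per gene for 24 libraries in 3 tables of 55401 genes, which STAR had aligned to mm10 with genes from GENCODE vM25. TT-seq reads were split by strand and counted with htseq-count after removal of duplicates, and reads in overlapping genes were given to each. RNA-seq counts came from STAR, and which strand was taken is not given in the sources used here, so overlapping genes on opposite strands are uncertain there. The deposited ZFP143 peaks carry the fold enrichment over input, a ratio, the −log10 of the q-value and an integer score from MACS2, from a single list. CTCF peaks are positions of both conditions pooled. Normalised 4C counts were not used here.

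A gene was tested where 4 or more of a table's 8 libraries held over 10 counts, which left 17870 genes for TT-seq, 13925 for the RNA-seq time course and 15915 for the RA set. Each table was fitted once in edgeR 4.0.16 (R 4.3.3) with TMM scaling and 4 groups of 2 libraries. The quasi-likelihood test served TT-seq and the interaction, with calls below an adjusted p of 0.05 whose log2 change exceeded 0.5 in size. For RNA-seq, glmTreat tested against 1.5-fold with calls below 0.01, and the quasi-likelihood test where "no change" is written. P-values were adjusted over all tested genes after Benjamini and Hochberg. DESeq2 1.42.0, other scalings, filters and thresholds, a replicate block and the loss of each library were tried.

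Positions and symbols are from GENCODE vM21 on the same build, which held 55141 of the 55401 identifiers without the version. A promoter peak overlapped 2000 bp upstream to 1000 bp downstream of a transcript start with its centre within 2000 bp. Sequences were read from the RefSeq GRCm38.p6 assembly, and promoter windows for all 10 members from RefSeq. The study's methods state biological replicates. No pair of libraries held identical values. The fits were tested on simulated data. The members and lists were chosen with earlier results of these data known. All 10 members are named, besides Zfp143, up to 4 called genes per list and comparison, genes that overlap a member, and the 3 genes most like a member called in TT-seq. Of 5 marker lists those of fibroblasts and trophoblast stayed at or under 27.1 and 17.0 summed CPM in every library.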

Additional observations from a re-analysis of the deposited data

Results flagged for a closer look

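Mff and Mief2, both receptors that bring DRP1 to mitochondria, stood out. Their change with RA and its medium differed between depleted and control cells by the test of that difference (edgeR). In dTAG that change also spans a longer depletion, which cannot be told apart from RA. Mff changed with RA by 0.47 in DMSO and by -0.14 in dTAG, the latter short of the threshold against no change (adjusted p = 0.116) and of the other sign under library size alone (0.25) and at 0.00 without dTAG RA replicate 1. It had an interaction of -0.61 (95% interval -0.85 to -0.37), while the interaction of Mief2 was 0.72 (0.41 to 1.03), a smaller decrease in dTAG. In the same test 31.7% of all genes were called and 7 of the 8 stem cell markers were higher, with a median of 1.20, while both tested neural progenitor markers were lower, with a median of -1.84, and their part in these values was not tested.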

How the results depend on the processing

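Of 1340 alternative values of single members, 1296 kept their direction and side of the threshold or stayed uncalled, 19 lost a call, 25 gained one and 0 called values turned; 52 uncalled values changed sign, 32 of them when a library was left out. Among 1336 alternative values of called list genes and Zfp143, 135 lost the call and 0 turned. The number of members called in TT-seq was 0 after 2 h with the size factors of DESeq2, and from 0 to 1 without single libraries after 2 and after 24 h. In RNA-seq it was 2 after 48 h under library size alone and with the thresholds of TT-seq. After 72 h it was 1 with no filter and with DESeq2, 3 with the thresholds of TT-seq, which add Mfn1, and 1 to 2 without single libraries. With the thresholds of TT-seq it was 2 for dTAG after RA, 6 for RA in DMSO and 3 for RA in dTAG, and with no limit on size 5 for the interaction. For RA in DMSO it was 1 with DESeq2, 4 with its size factors, which add Mief1, and 2 to 3 without single libraries, while it was 1 for RA in dTAG under library size alone and 2 to 4 for the interaction without single libraries. The cause of these moves was not tested. A group left with 1 library is assumed to vary like the others. The 3 promoter peaks held under every peak setting. A replicate block changed no count of members. Among all genes of TT-seq it called 749, 1315 and 2223 after 2, 6 and 24 h in place of 465, 577 and 1091, and no filter called 936, 1318 and 2203. Between 24 and 2 h the 16 calls became 962 with the block, 1310 with no filter, 424 with DESeq2, 26 with its size factors, 32 under library size alone and 0 without any 1 of the 4 libraries. Without single libraries the lowest counts of the first 3 comparisons were 113, 118 and 467. In RNA-seq DESeq2 called 437, 1509 and 2279 genes after 24, 48 and 72 h in place of 798, 2529 and 3589, 1013 between 72 and 24 h in place of 1967, and 617 and 1554 for dTAG before and after RA in place of 1019 and 2620, while the thresholds of TT-seq gave 2778, 5296, 6464, 4938, 3644 and 6299. The labels do not say what libraries of the same replicate number share. Deviations of the same number correlated across genes with r from 0.193 to 0.631 in TT-seq, where all 6 pairs of groups were positive. In the time course r was -0.0419 to 0.0621 and in the RA set -0.0986 to 0.125. In simulated TT-seq data with 2 libraries a group, 51 of 100 changes of 1 on the log2 scale were called. A member without a call may thus still have changed. What limited the calls of members was not tested.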

Other observations

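In the list of 7 MICOS genes 3 others with a peak, Immt, Chchd3 and Chchd6, were not called in either time course.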
